A study of Mus musculus with 76 samples.

Results

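Integrins are cell surface receptors built of an alpha and a beta chain, and laminins are the trimeric glycoproteins of basement membranes that many of them bind. The genes of both families were chosen by symbol alone, as Itga or Itgb with a number, Lama, Lamb or Lamc with a number, and Itgad, Itgae, Itgal, Itgam, Itgav and Itgax. This gave 36 genes of the 20710 measured in the series, of which 26 encode integrin chains and 10 laminin chains. Where a gene had several array features, the feature with the highest mean over all 76 arrays was used, and 11 of the 36 genes had more than 1.

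Alveolar septa and vessels were microdissected from the lungs of 40 mice and each RNA was amplified and hybridised to a single-colour Agilent array. Mice were wild-type or Noxo1 knockout (C57BL/6-Noxo1(tm1881_17.2Arte)). NOXO1 is a cytosolic protein that helps to assemble the superoxide-producing oxidase NOX1. Exposure to cigarette smoke with 140 mg particles per m3 began in week 12 and took 6 h on each of 5 days of the week, control mice had none, and the labels give 3 or 8 months. Genotype, exposure, time and tissue gave 16 groups of 4 or 5 arrays, namely wild-type control, wild-type smoke, knockout control and knockout smoke mice at 3 and at 8 months, each for septa and for vessels. The sources used here do not give the deleted stretch of the gene. Later age and longer exposure go together in these mice, so in the smoke groups they cannot be told apart.

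In the lung, the alveolar epithelium and the capillary endothelium share a thin basement membrane, while the smooth muscle cells of vessel walls are each wrapped in one. The alpha chain of an integrin largely sets its ligand. Some chains bind collagen, some bind laminin, some read the RGD motif of fibronectin, vitronectin or latent TGF-beta, and the beta chains Itgb2 and Itgb7 serve leukocytes. In each laminin an alpha, a beta and a gamma chain are joined, and the alpha chain carries the main integrin binding site.

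Promoters are shown for 4 members, with the 250 bases before the RefSeq start site in build GRCm38.p6 read on the gene's own strand. Itga5 is shown because it differed between the tissues and between the times in both tissues, Lama2 and Itgb6 because they were the 2 members with a CArG box, the motif of serum response factor, and Itgam because its array features disagreed. Capitals mark GGGCGG (the GC box of Sp1) in Itga5, the CArG box in Lama2 and Itgb6, and GAGGAAG (a box bound by the myeloid factor PU.1) in Itgam, each on either strand, and matches to the other motifs are left in lower case.
Itga5, chr15:103366792-103367041, minus strand: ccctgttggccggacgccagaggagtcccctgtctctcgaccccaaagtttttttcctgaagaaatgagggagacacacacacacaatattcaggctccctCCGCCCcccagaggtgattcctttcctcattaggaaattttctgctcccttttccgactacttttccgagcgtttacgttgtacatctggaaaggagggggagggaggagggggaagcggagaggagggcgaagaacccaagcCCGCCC
Lama2, chr10:27616943-27617192, minus strand: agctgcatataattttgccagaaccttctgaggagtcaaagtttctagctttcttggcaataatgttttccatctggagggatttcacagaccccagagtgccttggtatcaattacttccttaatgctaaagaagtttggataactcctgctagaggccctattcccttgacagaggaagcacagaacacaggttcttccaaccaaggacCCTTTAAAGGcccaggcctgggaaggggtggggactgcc
Itgb6, chr2:60673694-60673943, minus strand: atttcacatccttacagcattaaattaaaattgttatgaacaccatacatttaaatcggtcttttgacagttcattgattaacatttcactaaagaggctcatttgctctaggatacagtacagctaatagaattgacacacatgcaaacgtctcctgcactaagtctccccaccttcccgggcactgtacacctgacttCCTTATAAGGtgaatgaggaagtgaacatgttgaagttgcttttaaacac
Itgam, chr7:128062390-128062639, plus strand: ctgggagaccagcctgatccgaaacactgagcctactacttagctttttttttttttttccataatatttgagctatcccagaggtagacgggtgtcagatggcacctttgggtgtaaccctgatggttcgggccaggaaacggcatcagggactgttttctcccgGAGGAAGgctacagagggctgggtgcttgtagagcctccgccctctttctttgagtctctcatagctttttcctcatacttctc

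The CArG box ended 29 bases before the start site of Lama2 and 40 bases before that of Itgb6. RefSeq promoters matched 23 of the 36 members, with 26 windows in all. GGGCGG was present in 8 of these genes (9 of 26 windows), GAGGAAG in 7 (7 of 26) and the CArG box in 2 (2 of 26). Over all 32851 promoter windows of the same length the shares were 32.7% for GGGCGG, 10.6% for GAGGAAG and 1.47% for the CArG box. Lama2 was higher in vessels than in septa and Itgb6 was lower, so the 2 members with a CArG box differed in opposite directions.

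Values are log2 signals as deposited, and a difference of 1 is a 2-fold difference. Array signals carry no counts, and the number of arrays limits the precision. Odorant and vomeronasal receptor genes (1322 genes) served as a reference for low signal, and the 95th percentile of their values was 3.99. Of the 36 members 28 had a mean above it in septa, 28 in vessels and 29 in either tissue. Of all genes 53.1% had a mean over all arrays above it, so low signal was less common among the members. Septa arrays with a female pattern of sex-linked genes were 4 of 19 controls and 10 of 20 smoke-exposed mice, and vessel arrays 3 of 19 and 9 of 18. The arrays of mouse 7, a knockout control, and mouse 29, a wild-type control, both at 8 months, had opposite sex patterns in septa and vessels. Mouse 7 had a male pattern in septa and a female one in vessels, and mouse 29 the reverse. The sex pattern cannot tell which arrays are mislabelled, so the mouse and genotype labels of these arrays are uncertain. The labels were kept, and both mice count among the 35 with both tissues. Results that changed without these mice are given with both values. Mouse 25 had a pair of vessel arrays, and their mean counted as 1 of 36 vessel samples.

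Vessels and septa were compared to see in which tissue each chain had the higher signal. Of the 36 members 14 were higher and 13 lower in vessels at an adjusted p under 0.05, by limma with Benjamini-Hochberg adjustment over all genes. This compares with 29.0% of all 20710 genes called, 12.7% higher and 16.4% lower. All genes include a larger part with low signal than the members do, and these shares were not matched for signal level. Integrin chains gave 10 higher and 9 lower of 26, and laminin chains 4 higher and 4 lower of 10. The median difference was 0.07 for the members and 0.019 for all genes. Differences are vessel minus septa, averaged over the 8 combinations of genotype, exposure and time, with the SE over 36 vessel and 39 septa samples. In these bulk samples fewer cells of a type and less RNA per cell cannot be told apart.

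**Figure D1:**
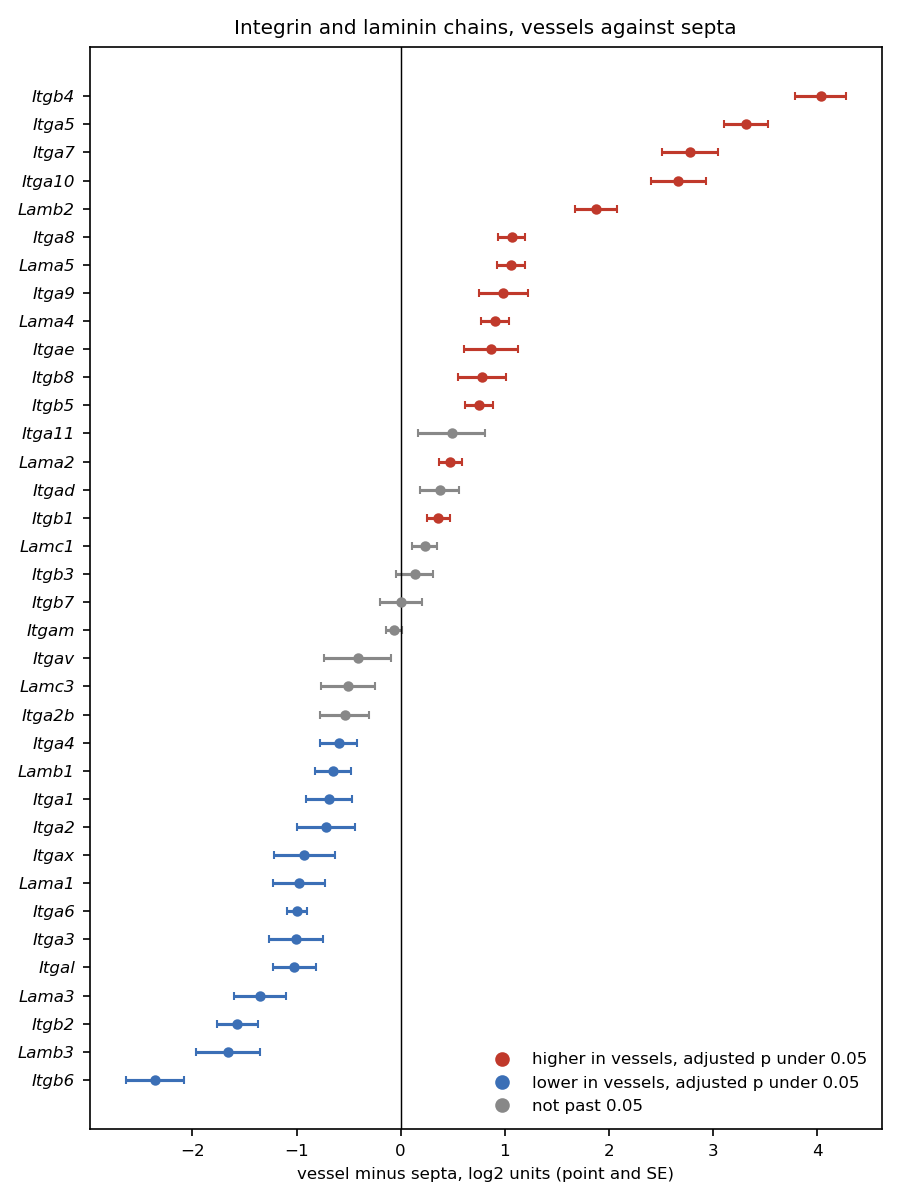
Vessel minus septa difference in log2 units for the 36 integrin and laminin chains, with points for the estimate and bars for the SE over 36 vessel and 39 septa samples. Red points (14 genes) were higher and blue points (13 genes) lower in vessels at an adjusted p under 0.05, grey points did not pass, and Itgb4 and Itgb6 lie at the ends with 4.03 and -2.36.

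Among the chains of laminin receptors, Itgb4 and Itga7 were higher in vessels, and Itga6 and Itga3 were lower. Itgb4, which pairs with Itga6 in hemidesmosomes, ran from 1.60 to 7.58 with a median of 5.42 in septa and from 7.37 to 10.50 with a median of 9.27 in vessels. Of the 37 vessel arrays 34 lay above the highest septa array. The difference was 4.03 ± 0.24 (16.4-fold, adjusted p 3.71e-23), and in all 35 mice with both tissues the vessel value was the higher. In the 8 combinations it ranged from 2.94 to 5.20.

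Itga7, the laminin receptor chain of muscle cells, had a median of 3.26 (1.31 to 6.47) in septa and 6.50 (1.61 to 7.78) in vessels. Most vessel arrays were high, but the lowest fell within the septa range. The difference was 2.78 ± 0.27 (6.87-fold, adjusted p 1.38e-13), with 32 of 35 mice higher in vessels, and since the septa mean of 3.42 lies below the receptor percentile its size is uncertain. Itga6, a laminin receptor chain of epithelium and endothelium, had little spread, with a median of 10.47 (9.78 to 10.99) in septa and 9.45 (8.61 to 10.31) in vessels. It was lower in the vessels of all 35 mice, with a difference of -0.996 ± 0.096 (adjusted p 8.84e-14), and 28 of 39 septa arrays exceeded every vessel array. So Itgb4 and its partner Itga6 differed in opposite directions between the tissues. Itga3, a laminin receptor chain of epithelium, differed by -1.01 ± 0.26 (adjusted p 0.00185) and was lower in the vessels of 24 of 35 mice.

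**Figure D2:**
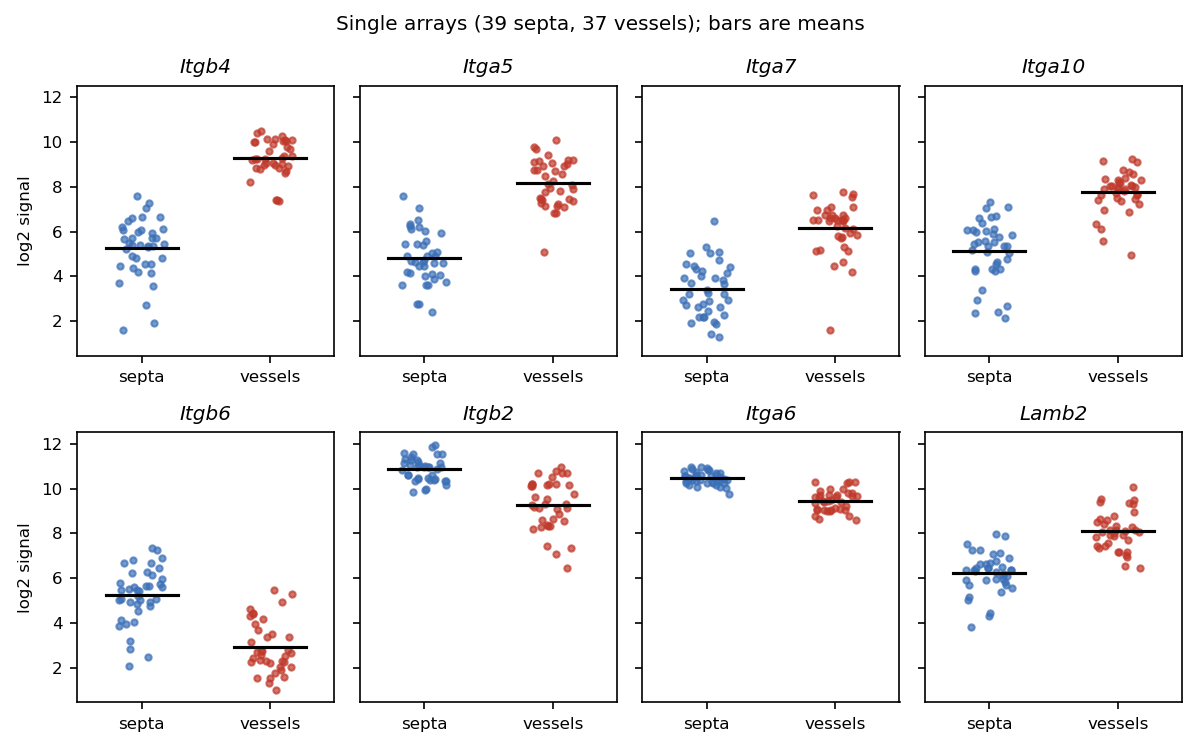
Log2 signals of 8 chains in single arrays of septa (39, blue) and vessels (37, red), with black bars for the means. Itgb4, Itga5, Itga7, Itga10 and Lamb2 sit higher in vessels, Itgb6, Itgb2 and Itga6 sit higher in septa, and for each gene at least 1 array lies within the range of the other tissue.

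Of the 8 chains of RGD-binding receptors 4 were higher in vessels, 1 was lower, and their median difference was 0.44. Itga5, the alpha chain of the classical fibronectin receptor, had a median of 4.69 (2.42 to 7.59) in septa and 8.14 (5.10 to 10.09) in vessels. Its vessel values were the higher in all 35 mice, by 3.32 ± 0.21 (9.97-fold, adjusted p 6.25e-22). The difference lay between 2.25 and 4.26 in the 8 combinations. Itga8, the nephronectin receptor chain of smooth muscle and interstitial cells, was higher by 1.07 ± 0.13 (adjusted p 2.74e-10) in 31 of 35 mice, and Itgb5, a vitronectin receptor chain, by 0.75 ± 0.13 in 28 of 35 mice. Itgb8 was also called (0.78 ± 0.23), but its mean was below the receptor percentile in both tissues.

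Itgb6, the epithelial chain that with Itgav activates latent TGF-beta, was the member lowest in vessels relative to septa. It had a median of 5.49 (2.06 to 7.35) in septa and of 2.66 (1.00 to 5.45) in vessels. In 20 of 39 septa arrays it exceeded every vessel array. The difference of -2.36 ± 0.28 (5.13-fold, adjusted p 1.45e-10) is uncertain in size, because the vessel mean of 2.93 lies below the receptor percentile. A dimmer feature of the gene gave -0.64 (adjusted p 0.0509), and the mean of both features -1.5. Itgav, its partner and that of Itgb3, Itgb5 and Itgb8, did not pass, and its features differed in sign, with -0.41 for the brighter and 0.47 for the dimmer. Itgb3, the beta chain of platelet and endothelial receptors, gave 0.14 and -0.28 by its 2 features and did not pass by either. Itga2b, the platelet alpha chain, differed by -0.54 ± 0.23 (adjusted p 0.0731) at a signal below the receptor percentile.

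Of the collagen receptor chains, Itga10 was higher and Itga1 and Itga2 were lower in vessels. Itga10, described mainly in cartilage, had a median of 5.38 (2.13 to 7.31) in septa and 7.92 (4.97 to 9.24) in vessels. Of the vessel arrays 30 of 37 exceeded every septa array. The difference was 2.67 ± 0.26 (6.35-fold, adjusted p 2.28e-13), with 34 of 35 mice higher in vessels, and its second feature gave 2.61 ± 0.27. None of the 5 chondrocyte markers tested (Acan, Col2a1, Matn1, Cnmd and Col9a1) had a mean above the receptor percentile in either tissue. Which cells gave the Itga10 signal was not tested. Itga1 differed by -0.69 ± 0.22 (adjusted p 0.0106). In the 4 combinations at 3 months its difference ran from -2.01 to -1.22 and in the 4 at 8 months from -0.70 to 0.72, and the time comparison describes this difference. Itga2 (-0.72 ± 0.28, adjusted p 0.0445) and Itga11 (0.49 ± 0.32, adjusted p 0.27) had low signal in both tissues.

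Itgb1, which pairs with most alpha chains, was higher in vessels by 0.36 ± 0.11 (adjusted p 0.00882) and by 0.39 on its second feature. Its medians were 10.09 in septa and 10.48 in vessels, and the ranges of the tissues overlapped widely. Itga9, a receptor chain for tenascin and other matrix proteins, was higher by 0.99 ± 0.23 (28 of 35 mice), whereas Itga4, the leukocyte receptor chain for Vcam1, was lower by -0.59 ± 0.18 in 24 of 35 mice. Itga4 lost its call when the features of a gene were averaged (-0.42, adjusted p 0.0645), Itgb1 with mouse as a fixed factor (0.34, adjusted p 0.0535), and Itga2 with quantile normalization (-0.70, adjusted p 0.0529), with mouse as a fixed factor (-0.77, adjusted p 0.0666) and without mice 7 and 29 (-0.63, adjusted p 0.103). Itga2 also lost it when any of 41 of the 75 samples was left out, and over all 75 such fits its adjusted p lay between 0.0122 and 0.0724.

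Of the 7 leukocyte chains 3 were lower and 1 was higher in vessels. Itgb2, the beta chain common to the leukocyte integrins LFA-1 and Mac-1, had a median of 10.96 (9.87 to 11.96) in septa and 9.29 (6.44 to 10.97) in vessels. It was lower in the vessels of 32 of 35 mice, by -1.57 ± 0.20 (2.96-fold, adjusted p 1.19e-09). Itgal, the alpha chain of LFA-1, differed by -1.02 ± 0.21, with -1.64 and 0.14 on its dimmer features, and Itgax, found on dendritic cells and alveolar macrophages, by -0.92 ± 0.29 (adjusted p 0.0119). Markers of leukocytes were lower in vessels as well, with 6 of 6 neutrophil, 4 of 6 alveolar macrophage, 4 of 4 B cell and 4 of 6 T and NK cell genes, and the summed level of the neutrophil list, as a mean over its genes, ran from 8.78 to 13.18 in septa and from 5.61 to 11.78 in vessels. Their part in the differences of the leukocyte chains was not tested.

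Itgam, the alpha chain of Mac-1 on neutrophils and macrophages, depended on the feature. The feature used here had by far the highest mean of the 3 (12.99) and little spread, from 12.11 to 13.50 in septa and 12.21 to 13.72 in vessels. It differed by -0.07 ± 0.08 (adjusted p 0.559). The other features, with means of 6.69 and 4.91, were lower in vessels by -2.41 ± 0.40 (adjusted p 9.09e-07) and -1.72 ± 0.34 (adjusted p 3.91e-05), so the value of Itgam in this and the other comparisons rests on the choice of feature. Itgae, the mucosal T cell chain, was called higher in vessels (0.87 ± 0.26) and Itgad did not pass (0.37 ± 0.19), both at means below the receptor percentile. Itgb7, the partner of Itgae, did not differ beyond its error (0.005 ± 0.20, adjusted p 0.99).

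Laminin alpha chains divided between the tissues. Lama5, the widespread alpha chain of adult basement membranes, had a median of 10.49 (8.74 to 11.60) in septa and 11.49 (10.44 to 12.63) in vessels and was higher by 1.06 ± 0.14 (adjusted p 1.12e-09) in 32 of 35 mice. Lama4, a chain of vessel and muscle basement membranes, was higher by 0.91 ± 0.14 (adjusted p 1.09e-07) and Lama2, the chain of muscle cells, by 0.48 ± 0.11 (adjusted p 0.000431), with 31 and 28 of 35 mice. Each of the 3 had a positive difference in all 8 combinations. Lama3, the alpha chain of epithelial laminins, was lower by -1.35 ± 0.25 (adjusted p 1.03e-05), and a second feature gave -0.88. Lama1, an embryonic chain, was called lower (-0.98 ± 0.25) at means of 3.37 and 2.43, both below the receptor percentile.

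The beta chains Lamb2 and Lamb3 gave the widest contrast among laminins. Lamb2, the beta chain of vascular and muscle laminins, had a median of 6.35 (3.80 to 7.98) in septa and 8.08 (6.45 to 10.09) in vessels. It was higher by 1.88 ± 0.20 (3.67-fold, adjusted p 2.92e-12) in 33 of 35 mice, with 21 of 37 vessel arrays above every septa array. Lamb3, which joins Lama3 in epithelial laminin, had a median of 7.24 (5.45 to 8.27) in septa and 6.43 (1.44 to 8.08) in vessels, where 13 of 37 arrays lay below the lowest septa array. It was lower by -1.66 ± 0.31 (adjusted p 9.66e-06). Lamb1 was lower by -0.65 ± 0.17 (adjusted p 0.0022), and the gamma chains Lamc1 (0.23 ± 0.12) and Lamc3 (-0.51 ± 0.25) did not pass.

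**Figure D3:**
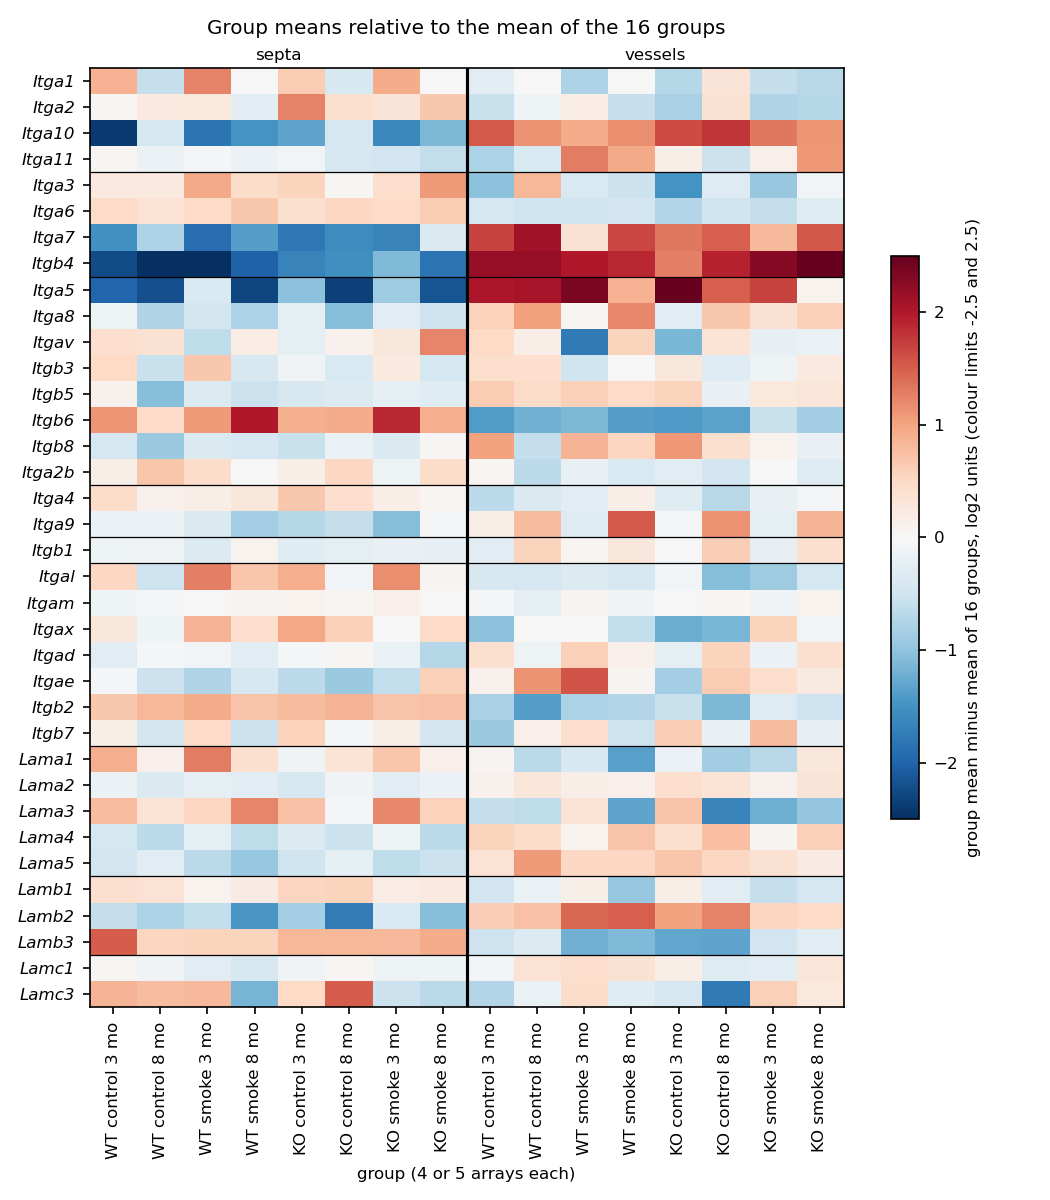
Mean log2 signal of each chain in the 16 groups, minus the mean of that chain over the groups, ordered by role (black lines) with septa to the left and vessels to the right, WT for wild-type and KO for knockout. Red is above and blue below the chain's own mean, and colours saturate at 2.5 log2 units in either direction. Values beyond these limits include Itgb4 in wild-type control septa at 8 months (below) and Itga5 in knockout control vessels at 3 months (above). Itgb4, Itga7 and Itga10 are blue in all 8 septa groups and red in all 8 vessel groups, with Itgb6 the reverse.

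Markers of cell types moved with these tissue differences. All 8 smooth muscle genes tested were higher in vessels, with Acta2 higher by 6.17 and Myh11 by 6.15, and the mean level of that list ran from 5.55 to 7.57 in septa and 10.26 to 12.34 in vessels, without overlap. All 6 type 1 and all 6 type 2 pneumocyte genes were lower, among them Ager by -2.84 and Sftpc by -0.89, as were 5 of 6 capillary endothelial genes. Of 5 ciliated airway genes 4 were higher in vessels (Foxj1 by 4.69, from a septa mean of 2.38 below the receptor percentile, so that the size is uncertain), with a list mean of 3.99 to 6.15 in septa and 4.20 to 9.78 in vessels. Of 5 club and basal airway genes 3 were higher, among them the club cell genes Cyp2f2 (2.26) and Scgb1a1 (0.68). The basal cell genes Krt5 (means of 2.20 and 2.52, below the receptor percentile) and Trp63 (12.50 and 12.40) were not called. Of 6 fibroblast genes 4 were higher, with Dcn by 6.78 and Col1a1 by 1.92, and 2 were lower, and of 6 genes of arterial and venous endothelium 3 were higher, with Vwf by 2.08, Bmx by 1.67 and Gja5 by 1.65, and 1 was lower (Sox17 by -1.15). Of 5 adipocyte genes 3 were higher, with Plin4 by 6.60. Of 5 heart muscle genes 4 were higher, and the list mean ran from 1.94 to 4.75 in septa and from 4.29 to 12.75 in vessels. The part of these cells in the differences of Itgb4, Itga7, Lamb2 and the other chains was not tested.

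Other genes of the adhesion machinery divided in both directions too. Among 22 basement membrane partners of laminin, vessels had higher values of 12 and lower values of 5, and the median difference was 0.54. Dmd, the dystrophin that links the laminin receptor dystroglycan to actin, was higher by 5.38 ± 0.27 and its partner Sgcd by 4.62 ± 0.33, each with a septa mean below the receptor percentile, while Col18a1 was higher by 3.62 ± 0.22 and Col4a6 by 3.39 ± 0.22. The type IV collagen chains Col4a4 (-2.95 ± 0.30) and Col4a3 (-2.85 ± 0.32), partners in the alveolar basement membrane, were lower, as were Col4a2 (-1.28) and Col4a1 (-0.53). Of 33 adaptor and adhesion proteins inside the cell 10 were higher and 8 lower, with a median of -0.11, from the actin crosslinkers Actn1 (2.50 ± 0.17) and Flna (1.87 ± 0.07) to the tensin Tns3 (-1.55 ± 0.28) and the leukocyte parvin Parvg (-1.37 ± 0.30). Of 28 further integrin ligands 11 were higher and 8 lower, with a median of 0.12. Vcam1, the ligand of Itga4, was higher by 2.42 ± 0.19, and the RGD ligands Vtn (-2.41 ± 0.34) and Spp1 (-2.24 ± 0.25) were lower, each with a vessel mean below the receptor percentile.

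Mice at 8 months were compared with mice at 3 months in each tissue. In septa 4 of the 36 members (11.1%) fell and 0 rose by limma. Of all genes 3.5% were called, 1.27% lower and 2.23% higher. At an unadjusted p under 0.05 there were 8 members (22.2%, with 15.8% of all genes), and the median of the members was -0.15 with 0.018 for all genes. All 4 were integrin chains, and by the features used no laminin chain passed in either tissue. The dimmer feature of Lama2 was higher at 8 months in septa (0.71 ± 0.20, adjusted p 0.03), while the feature used gave 0.04 ± 0.17 (adjusted p 0.951). Differences are 8 minus 3 months, averaged over genotypes and exposures, in 20 and 19 septa. The labels give no batch by which the mice of the 2 times could be separated from the times themselves.

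Itga1, a collagen receptor chain of smooth muscle, capillary and resident T cells, had a median of 8.96 (8.14 to 10.18) in septa at 3 months and 7.85 (6.17 to 8.55) at 8 months. The values overlapped between 8.14 and 8.55, and in each pair of groups of a genotype and exposure the mean was lower at 8 months. It fell by -1.16 ± 0.19 (2.23-fold, adjusted p 0.000225, limma), and its second feature gave -0.79 ± 0.28 (adjusted p 0.133). In wild-type control septa the values were 8.42, 8.94, 8.97 and 9.08 at 3 months and 6.47, 7.35, 7.50, 7.52 and 8.18 at 8 months. In knockout smoke septa they were 8.14, 8.68, 8.91, 9.22 and 9.57 at 3 months and 7.78, 7.84, 7.85, 8.16 and 8.28 at 8 months. The first pair of groups did not overlap and the second did. The share of all genes without overlap between such groups is not given here.

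Itgal had a median of 10.03 (8.57 to 11.09) in septa at 3 months and 9.00 (7.71 to 10.49) at 8 months. It fell by -0.92 ± 0.21 (adjusted p 0.00632), and of its other features the brighter gave -1.35 ± 0.34 (adjusted p 0.0185). Its partner Itgb2 did not pass, with 0.004 ± 0.17 (adjusted p 0.996). Itga5 in septa had a median of 5.44 (4.10 to 7.59) at 3 months and 4.26 (2.42 to 6.52) at 8 months and fell by -1.18 ± 0.33 (adjusted p 0.0341). Itgb3 had a median of 9.96 (8.52 to 11.47) and then 9.42 (7.76 to 10.63) and fell by -0.76 ± 0.22 (adjusted p 0.0383), whereas its second feature gave -0.15 ± 0.25 (adjusted p 0.85). The ranges of the 2 times overlapped widely for each of these 3 genes.

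**Figure D4:**
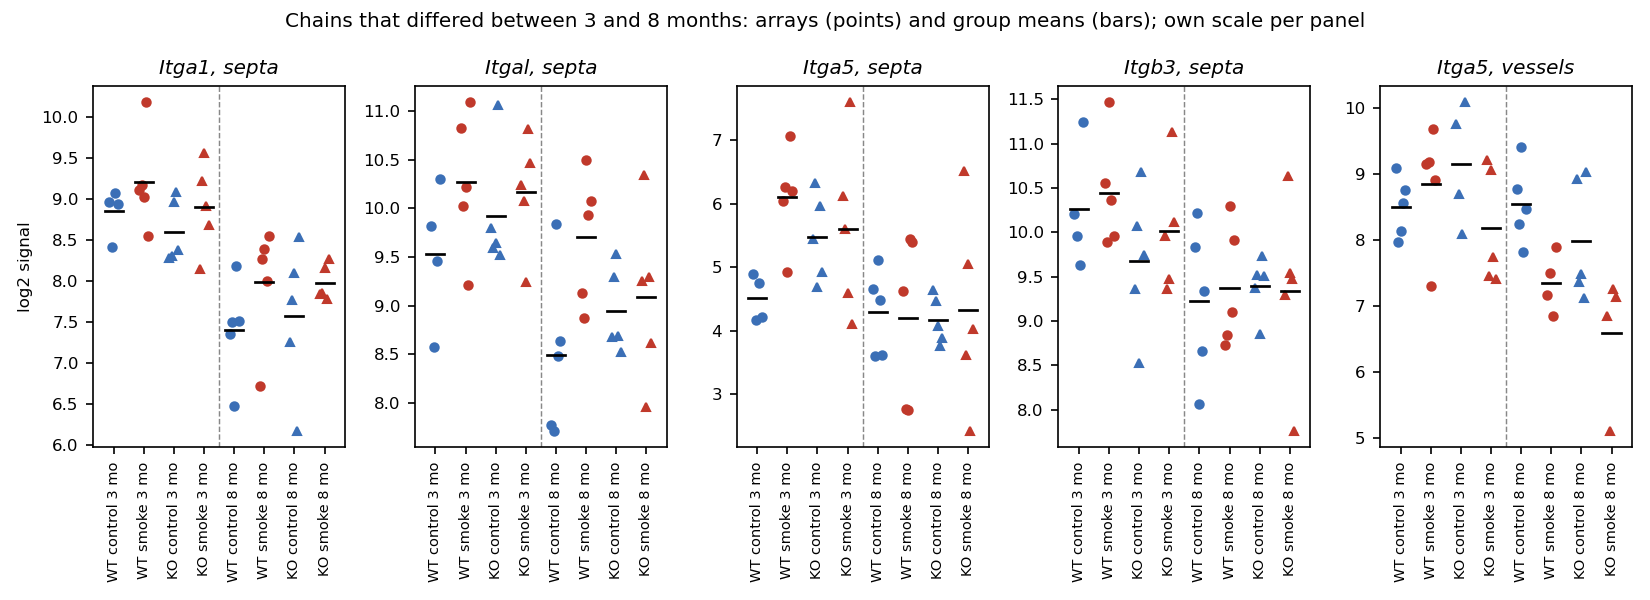
Log2 signals of the chains that fell between 3 and 8 months, with points for arrays (circles wild-type, triangles knockout, blue control, red smoke), bars for group means and a dashed line between the times. Each panel has its own scale. In septa Itga1 medians were 8.96 and 7.85, and in vessels Itga5 medians were 8.81 and 7.49, with overlap between the times in every panel.

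In vessels Itga5 was the 1 member that fell, against 1.27% of all genes called, 0.246% lower and 1.02% higher, and 0 members rose. At an unadjusted p under 0.05 there were 6 members (16.7%, with 13.9% of all genes). Its median was 8.81 (7.30 to 10.09) at 3 months and 7.49 (5.10 to 9.41) at 8 months, in 18 samples each. It fell by -1.07 ± 0.27 (adjusted p 0.0383, limma), a size close to that in septa. In the wild-type vessel controls, however, the values at 3 months (7.96 to 9.09) and 8 months (7.82 to 9.41) covered the same range. In the knockout smoke group they were 7.41, 7.45, 7.75, 9.06 and 9.22 at 3 months and 5.10, 6.84, 7.13 and 7.25 at 8 months, without overlap. How many of all genes lack overlap between these groups is not given here. Itga8 (0.68 ± 0.20, adjusted p 0.0895), Itga9 (1.15 ± 0.35, adjusted p 0.0905) and Itgb1 (0.55 ± 0.18, adjusted p 0.133) had the lowest p among the rest.

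The time calls depended on single samples and settings. The septa count was 2 to 5 when each septum array was left out in turn, with 2 left without knockout control replicate 2 or 4 at 3 months, knockout smoke replicate 4 at 3 months, or wild-type smoke replicate 2 at 8 months. Itga1 and Itgal kept their calls with each of the 39 left out, while Itga5 lost it in 9 (adjusted p 0.0111 to 0.0608 over all 39) and Itgb3 in 14 (0.0157 to 0.0901 over all 39). In vessels Itga5 lost its call when any of 17 of 36 samples was left out (0.0195 to 0.0725 over all 36). Without mice 7 and 29 Itga5 in vessels gave -0.995 (adjusted p 0.0839) and Itgb3 in septa -0.74 (adjusted p 0.0611), and with the sex pattern as a covariate Itga5 in vessels gave -1.05 (adjusted p 0.0607). In 1 fit over both tissues Itgal (adjusted p 0.106) and Itgb3 (adjusted p 0.126) lost their calls in septa, and with the mean of its features Itgb3 gave -0.46 (adjusted p 0.256). In that fit 3 members rose in vessels, where 753 of all 20710 genes were called higher.

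The difference between the tissues in the time effect was tested directly. Of all genes 0.0386% passed and of the members 0, with 6 members at an unadjusted p under 0.05 (16.7%, with 8.55% of all genes). Itga8 came nearest, at 8.91 in septa and 10.56 in vessels at 8 months against 9.41 and 9.89 at 3 months. Its vessel minus septa difference was wider at 8 months by 1.17 ± 0.26 (adjusted p 0.0575), and adjusted p was 0.0286 to 0.137 over the alternatives and 0.0205 to 0.0992 with samples left out. For Itga1 the value was 1.67 ± 0.43 (adjusted p 0.151) and for Lama4 0.69 ± 0.27 (adjusted p 0.454).

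Npnt, the ligand nephronectin of the receptor formed with Itga8, fell in septa by -0.79 ± 0.11 (adjusted p 2.52e-05) and in vessels by -0.95 ± 0.21 (adjusted p 0.0155). Of the 28 further ligands 3 fell and 1 rose in septa, and 1 fell in vessels. Utrn, the dystrophin relative at the cell's laminin receptors, was the basement membrane partner that fell in septa (-1.21 ± 0.19) and in vessels (-1.33 ± 0.22), and Nid1, which bridges laminin and type IV collagen, rose in vessels (0.87 ± 0.19, adjusted p 0.0156). Among 33 adaptors Tns3 fell in septa (-1.09 ± 0.23) and Tns1 rose in vessels (0.36 ± 0.08). Neutrophil markers rose with time, 4 of 6 in septa and 2 of 6 in vessels, with list means of 8.78 to 12.39 at 3 months and 11.08 to 13.18 at 8 months in septa. Of 6 endothelial markers of arteries and veins Vwf (-0.70) and Gja5 (-0.78) fell in septa, and Sox17 rose in vessels (1.26). The macrophage gene Chil3 (1.93), the T and NK cell gene Gzma (1.06) and the type 2 pneumocyte gene Sftpa1 (0.37) rose in septa. Each was the only gene of its list that was called there. Of the other T and NK cell genes, Cd8a (-1.03), Nkg7 (-0.51), Cd3e (-0.355) and Cd3g (-0.09) had negative differences and Klrb1c (0.57) a positive one. The part of all these genes and markers in the time differences of the integrin chains was not tested.

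Smoke-exposed mice were compared with controls in each genotype, tissue and time and on average over genotypes and times. No member passed in any of these 10 comparisons by limma. Of all genes 0.0% were called for average smoke in septa, 0.0% in vessels, and 1 gene (0.00483%) in wild-type septa at 3 months. At an unadjusted p under 0.05, 3 members lay in each tissue for average smoke (8.33% of members, with 7.7% of all genes in septa and 5.0% in vessels).

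Lamc3, a laminin gamma chain of restricted tissues, had the lowest p for average smoke in septa. At 8 months its values in wild-type controls were 4.66, 4.79, 4.99, 5.03 and 5.76 and in wild-type smoke mice 2.32, 2.51, 3.38, 3.58 and 3.77. In knockout controls they were 5.22, 5.37, 6.03, 6.07 and 6.22 and in knockout smoke mice 2.69, 2.81, 3.60, 3.72 and 5.21. The smoke values lay below the control values in both genotypes, without overlap, although the highest knockout smoke array (5.21) came next to the lowest knockout control array (5.22). Lamc3 was picked by its p, and the share of all genes that separate in this way is not given here. The differences were -1.93 ± 0.58 and -2.18 ± 0.58, with adjusted p of 0.734 and 0.494. A female pattern was found in 1 of 5 control and 3 of 5 smoke arrays of these wild-type septa. In the knockout septa it was found in 0 of 5 and 4 of 5, so sex and smoke are partly mixed here. At 3 months the values overlapped, with differences of -0.03 ± 0.62 in wild-type and -1.03 ± 0.58 in knockout septa.

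**Figure D5:**
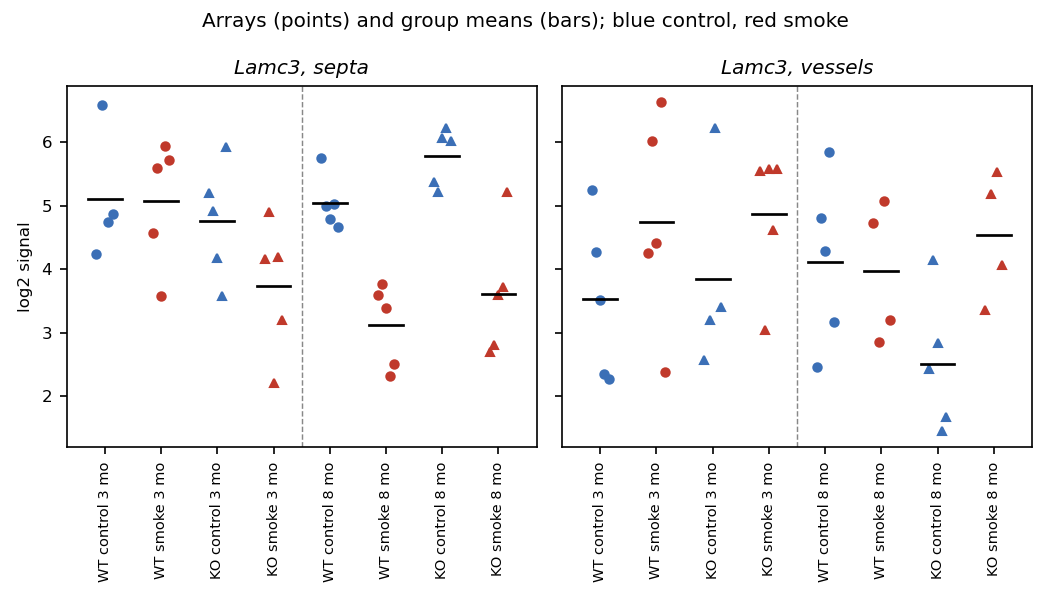
Log2 signal of Lamc3 in septa (left) and vessels (right), with points for arrays (circles wild-type, triangles knockout, blue control, red smoke), bars for group means and a dashed line between 3 and 8 months. In septa at 8 months the smoke arrays lie below the control arrays in both genotypes, and in vessels smoke and control arrays overlap in each pair of groups. Lamc3 was picked by its low p and did not pass adjustment for smoke in either tissue.

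In vessels Lamc3 values of smoke and control mice overlapped in each pair of groups, and the average difference was positive, 1.01 ± 0.44 (adjusted p 0.977). The vessel minus septa difference of the smoke effect was 2.30 ± 0.51 (adjusted p 0.171), when 0.00966% of all genes passed. It passed without knockout control vessel replicate 3 at 3 months (adjusted p 0.0277) or wild-type smoke vessel replicate 5 at 3 months (0.0343), and with each other sample left out or under the alternatives it did not, where adjusted p reached 0.515. Itga5 (-1.27 ± 0.42, adjusted p 0.619) and Itga11 (1.39 ± 0.64, adjusted p 0.773) followed, and 3 members lay at an unadjusted p under 0.05 (6.33% of all genes). Over both times the septa difference was -1.29 ± 0.30 (adjusted p 0.41), and -1.45 ± 0.31 (adjusted p 0.232) with the sex pattern as a covariate. The smoke mean in septa (3.88) and the control mean in vessels (3.52) lie below the receptor percentile, so the sizes are uncertain.

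Other members with a low p for smoke were Itgal and Itga1 in septa and Itga5 and Itga11 in vessels. Itgal had a median of 9.46 (7.71 to 11.06) in control and 10.05 (7.96 to 11.09) in smoke septa, a difference of 0.59 ± 0.21 (adjusted p 0.556), and Itga1 gave 0.41 ± 0.19 (adjusted p 0.607). Itga5 in vessels had a median of 8.52 (7.11 to 10.09) in controls and 7.47 (5.10 to 9.70) in smoke mice, a difference of -0.82 ± 0.27 (adjusted p 0.975). In wild-type septa at 3 months, by contrast, Itga5 gave 1.59 ± 0.69 (adjusted p 0.957), with controls at 4.17, 4.21, 4.74 and 4.90 and smoke mice at 4.92, 6.04, 6.19, 6.27 and 7.07. These 2 groups did not overlap, but Itga5 was named for its low p in this comparison. The share of all genes that separate likewise is not given here. Itga11 in vessels gave 1.22 ± 0.52 (adjusted p 0.977), at a low signal. No gene of the adhesion lists passed for average smoke by limma. At an unadjusted p under 0.05 there were 5 of 33 adaptors, 4 of 22 basement membrane partners and 2 of 28 ligands in septa, and 7, 1 and 3 in vessels. The shares of all genes were 7.7% in septa and 5.0% in vessels.

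The single comparisons, of 4 or 5 mice each, are given by their members of lowest p. In wild-type septa 1 member, Itga5, lay at an unadjusted p under 0.05 at 3 months (5.09% of all genes), followed by Lamb3 (-0.96 ± 0.49) and Itgal (0.74 ± 0.44). At 8 months 2 members did (5.79%), Lamc3 and Itgal (1.21 ± 0.41), followed by Itgb6 (1.52 ± 0.76). Knockout septa had 0 such members at 3 months (3.54%), with Lamc3, Itgax (-0.97 ± 0.62) and Itga2 (-0.91 ± 0.68) the lowest in p. At 8 months they had 2 (6.55%), Lamc3 and Itgae (1.54 ± 0.49, low signal), followed by Itgav (1.12 ± 0.63).

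In wild-type vessels 3 members lay at an unadjusted p under 0.05 at 3 months (6.12% of all genes), namely Itgb7 (1.55 ± 0.70), Itgav (-2.35 ± 1.12) and Itgb3 (-1.12 ± 0.54). Over the alternatives and with samples left out Itgav ran from -3.24 to -0.78 and Itgb3 from -1.45 to -0.24, so their sizes are uncertain. At 8 months Itga5 alone did (2.94%), with -1.19 ± 0.54, followed by Lama5 (-0.54 ± 0.32) and Itga3 (-1.36 ± 0.90). In knockout vessels at 3 months Lama3 did (6.2%), with -1.95 ± 0.84, followed by Itgb4 (1.01 ± 0.52) and Itga5 (-0.98 ± 0.54). At 8 months 3 members did (4.3%), namely Itga5 (-1.40 ± 0.54), Lamc3 (2.02 ± 0.89) and Lama1 (1.14 ± 0.54, low signal). Itga5 was thus among these members in both genotypes at 8 months, where smoke values ran from 6.85 to 7.89 against 7.82 to 9.41 in wild-type controls and from 5.10 to 7.25 against 7.11 to 9.03 in knockout controls, with overlap in each. A female pattern was found in 0 of 5 wild-type control and 3 of 4 wild-type smoke arrays of these vessels. In knockout vessels it was found in 1 of 5 control and 3 of 4 smoke arrays. Sex and smoke are therefore partly mixed in both genotypes.

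Knockout and wild-type mice were compared within each tissue. No member and 0.0% of all genes passed in septa or in vessels by limma, and at an unadjusted p under 0.05 there was 1 member in septa (3.98% of all genes) and 0 in vessels (4.86%). Itgb4 was that member. Its septa values ran from 1.60 to 7.27 with a median of 4.84 in wild-type and from 4.20 to 7.58 with a median of 5.71 in knockout mice, a difference of 0.97 ± 0.39 (adjusted p 1.0), followed by Itga2 (0.58 ± 0.35) and Lama1 (-0.41 ± 0.40). In vessels Itga8 had the lowest p, with -0.38 ± 0.20 (adjusted p 0.979), followed by Itgb7 (0.54 ± 0.35) and Itgae (-0.67 ± 0.48). The genotype effect was compared between the tissues too, where 0 members passed and 1 had an unadjusted p under 0.05 (4.65% of all genes). This was Itgb4, with -1.02 ± 0.49 (adjusted p 0.998), followed by Lamc1 (-0.38 ± 0.25) and Itgb5 (-0.41 ± 0.26). No member passed for the difference of the smoke effect between genotypes, where the lowest p belonged to Itgav in septa (1.44 ± 0.64, adjusted p 0.999) and Lamb2 in vessels (-1.43 ± 0.58, adjusted p 0.998), with 2 members (3.8% of all genes) and 1 member (4.38%) at an unadjusted p under 0.05. The value of Itgav ran from 0.47 to 1.75 over the alternatives and with samples left out.

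Chains that form 1 receptor or laminin were compared over mice, after the group means were removed, in 9 pairs and 2 tissues. Itgal and Itgb2, the chains of LFA-1, correlated in septa with Pearson r = 0.553 over 39 samples (permutation p 0.00027, adjusted over 18 tests 0.00486) and Spearman rho = 0.508 (permutation p 0.00106, adjusted 0.0191). Without the 2 samples farthest from the median of Itgal r was 0.469. Of 20709 genes Itgb2 ranked 21 by its correlation with Itgal, and Itgal ranked 111 by its correlation with Itgb2. In vessels r was -0.036 (adjusted permutation p 0.942), and the difference between the tissues was not tested.

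Itga7 and Itgb1 had r = -0.45 in septa (permutation p 0.00404, adjusted 0.0364) and rho = -0.46 (permutation p 0.0035, adjusted 0.0315), with r = -0.425 without the 2 farthest samples, and r = -0.056 in vessels. Since these p-values are somewhat too low, the septa result for this pair is uncertain. Itga6 and Itgb4, Itga2b and Itgb3, Itgae and Itgb7, Itga8 and Itgb1, Lama3 and Lamb3, and Lama4 and Lamc1 did not pass in either tissue, with r between -0.298 and 0.32. For Itgam and Itgb2, the chains of Mac-1, the bright feature gave r = -0.151 in septa (permutation p 0.359, adjusted 0.546). The feature of Itgam with a mean of 6.69, added after the values were seen, gave r = 0.692 (permutation p 2e-05, adjusted over 6 tests 0.00012) and rho = 0.704 in septa and r = 0.285 in vessels (permutation p 0.0921). The third feature gave r = 0.388 in septa (permutation p 0.015, adjusted 0.045), and r = 0.293 without the 2 farthest samples. This result is uncertain for the same reason.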

How the data were processed

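Septa and vessels of 40 mice were measured on 76 arrays. The authors deposited log2 values, with limma named in the submitters' processing notes without a version. Array quartiles differ by at most 0.0024, and no source used here states a background correction. Of 62976 features 31465 carried a symbol, and 20710 genes were tested. Each gene is represented by its brightest feature on average. The members and lists were chosen with earlier results of these data known.

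Differences were fitted with limma 3.58.1 in R 4.3.3 (lmFit, eBayes with trend), with a mean for each group within a tissue, and over both tissues with mouse as a random block (consensus correlation 0.0283). Calls used Benjamini-Hochberg adjusted p under 0.05 over all genes, and adjusted p-values of single genes are from these fits. Residuals of the 35 pairs of tissues from 1 mouse, paired per the labels, had a mean correlation of 0.03, and those of different mice -0.007. Correlations were tested by 100000 permutations in Python 3.11.15 with numpy 2.4.6, pandas 2.3.3 and scipy 1.17.1, and figures were drawn with matplotlib 3.10.9. The permutations exchanged residuals over all samples of a tissue without regard to group.

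Named with values were, in each comparison, up to 20 members past adjustment, or, if there were none, 3 members by p-value out of those above the 25th percentile of mean signal, the members of each role with the largest tissue difference in each direction, up to 4 genes in each direction of each pathway list and up to 3 of each marker list. Other members, and features of a gene set side by side, were chosen after their values were seen. Alternatives were quantile normalization, leaving out genes under the 25th percentile, the mean of all probes, a replicate block, both mouse 25 arrays as replicates, array weights, sex pattern as a covariate, no mice 7 and 29, other mouse terms, 1 fit over both tissues, only the groups compared, and each sample left out.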

Additional observations from a re-analysis of the deposited data

Results flagged for a closer look

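Of 112 sets of 4 or 5 arrays of a named member in a group, 3 held an array far from the others, and chance gives about 1 in 20. Itga11 in wild-type control vessels at 8 months was highest in replicate 3, with 5.36 against 2.48 for the next array. Itgal in knockout control septa at 3 months was highest in replicate 4, with 11.06 against 9.80. Itgb7 in knockout smoke vessels at 3 months was lowest in replicate 4, with 7.31 against 8.81.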

How the results depend on the processing

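Of the 27 tissue calls those of Itga2, Itga4 and Itgb1 were lost under an alternative or with a sample left out, the others held in each fit that tested them (Itgb8 is too dim to be tested without dim genes), and the counts with a sample left out were 14 to 15 higher and 12 to 14 lower. For time in septa the count lower was 2 in 1 fit over both tissues (with 78 of all genes called lower, and where Itgal had an adjusted p of 0.106 and Itgb3 of 0.126) and 2 to 5 with a sample left out. For time in vessels the count higher was 3 in 1 fit over both tissues (with 753 of all genes called higher) and 1 with a replicate block (with 226), and the count lower was 0 with the sex pattern, 0 without mice 7 and 29, and 0 to 1 with a sample left out. For time between the tissues the count higher was 1 (Itga8) without dim genes, with the replicate block and with array weights, and 0 to 1 with a sample left out, as it was for smoke between the tissues. Residuals of equal replicate numbers correlated at a mean of 0.018 (6 of 251 pairs over 0.1) and others at -0.005 (11 of 980). This check cannot decide whether the numbers pair samples, since tissues of 1 mouse correlated at a mean of only 0.03. The replicate block changed no other call of a member. Without its 2 farthest samples the correlation of Lama3 and Lamb3 in septa went from 0.01 to -0.13. The causes of these changes were not tested. Members with a mean under the receptor percentile have differences of uncertain size, and a difference by smoke that did not pass is not shown to be absent.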
